A study of Rattus norvegicus with 12 samples.

Results

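The rat liver line TRL1215 gave 2224 bright probe sets to which the platform's annotation assigns no gene symbol. They were the rows of the deposited table with no symbol, with names outside the control sets, and with a mean of 12 or more on the log2 scale over the 3 control arrays. They came from 44891 rows without a symbol and from 68842 probe sets other than controls. Rows that held the same value on all 12 arrays were collapsed, which left 1642 distinct profiles. The set against which they were described was the 558 rows that passed the same level and carried exactly 1 gene symbol, in 504 distinct profiles.

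The study exposed TRL1215 cells, a rat liver line, to perfluorooctanoic acid (PFOA), a fluorinated surfactant, and measured total RNA on 12 Affymetrix whole-transcript arrays. The T10, T50 and T100 groups were kept in PFOA at 10, 50 and 100 µM for as long as 38 weeks, and the control group was passage-matched cells without it, with 3 arrays in each group. All 4 groups were grown in William's E medium with serum and passaged weekly, and 100 ng of RNA was amplified per array. The labels name 1 cell line and do not say that the 3 replicates of a group were separate cultures, so the p-values below reflect only how far these particular samples spread.

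A whole-transcript array carries probe sets for many transcribed stretches that have no named gene: predicted transcripts, non-coding RNAs, repeated sequences and retrocopies of genes that every cell expresses strongly. Retrocopies are DNA copies made from a processed messenger RNA, and ribosomal protein genes are among those that have left many of them in mammalian genomes. The mitochondrial genome also encodes ribosomal and transfer RNAs beside its protein-coding genes, and its transcripts are abundant in most cells. A probe whose sequence occurs in several places reads the RNA of all of them together.

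The arrays had closely matched medians, between 3.73 and 3.81. The 95th percentile over all probe sets other than controls averaged 10.75 on control arrays, 10.53 for T10, 10.60 for T50 and 10.73 for T100. Background was taken as the 95th percentile over negative-control sets, which averaged 5.42, 5.77, 5.52 and 5.65 in the same order of groups. Of 9 measured hepatocyte markers, 0 exceeded that background in any group, so these markers of mature hepatocytes were not detected in this liver line. Of 7 epithelial and biliary markers, Krt8 alone did. Of 6 mesenchymal markers, Vim, Col1a1, Col1a2 and Acta2 did. Of 4 endothelial markers, Tek did, and of 5 leukocyte markers, 0 did.

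The rows without a symbol were unevenly spread over the chromosomes that their names give. Chromosome 1 held 239, chromosome 2 held 219, chromosome X held 169 and chromosome 4 held 165. As a share of all rows without a symbol on a chromosome, the bright ones made up 10.0% on X and 6.55% on chromosome 14, against 2.58% on chromosome 12 and 4.95% over all. The mitochondrial chromosome stood apart, with 20 of its 37 rows without a symbol among the bright ones (54.1%). There were 3 bright rows from sequences that the names call unmapped, 2 from unplaced scaffolds and 1 from an unlocalized piece of X. Neighbouring rows were often bright together. Of the 1656 bright rows whose next row in the table also lacked a symbol, 385 (23.2%) were followed by another bright row, and 72 of these had the same values on every array.

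Control levels ran from 12.01 to the ceiling of the table, 19.93, with a median of 16.48, against a median of 14.61 in the bright rows with a symbol. The ceiling was reached on all 12 arrays by 258 rows, which lie on 23 chromosomes or scaffold classes, and on some arrays by 24 more. A further 67 rows held a single value below the ceiling on every array. The remaining 1875 rows varied and never touched the ceiling. Equal values were common even among those that varied: 1174 of the 2224 rows held 1 value on 3 or more arrays, and so did 409 of the 558 rows with a symbol. A row at the ceiling or at a fixed value gives no view of a change in its RNA.

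The brightest profiles with a control mean below the ceiling mostly held a fixed value, with TC1900001661 as the exception. TC0900001834 and TC0900002112 on chromosome 9 held 19.92 and 19.88 on all 12 arrays, and TC0700001674 on chromosome 7 held 19.88 on all but T100 replicate 2, at 19.66. TC1900001661 on chromosome 19 read 19.93, 19.88 and 19.88 in control cells, 19.88, 19.75 and 19.88 in T10, 19.88, 19.44 and 19.88 in T50, and 19.88, 18.40 and 16.95 in T100. Its control replicate 1 was at the ceiling. T100 replicates 2 and 3 lay below all other arrays of that row, while T100 replicate 1 overlapped with the other groups, and the T100 mean differed from control by -1.49 ± 0.55.

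Just inside the level of 12 stood TC1400000487, TC0400000786 and TC1500001195, with control means of 12.01, 12.01 and 12.01. Just outside it stood TC0100004693, TC0100002337 and TC0100001785, with control means of 11.98, 11.98 and 11.98. These rows lay within 0.03 of the level on both sides.

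Many rows without a symbol carried the values of other rows. There were 70 profiles shared by 2 or more rows, and they held 652 rows in all, of which 258 were at the ceiling on all 12 arrays and 394 were not. Of the 70 profiles, 58 joined rows from more than 1 chromosome and covered 624 rows, the 258 at the ceiling included. The other 12 stayed within a chromosome and covered 28. Among the bright rows with a symbol, only 2 profiles were shared by 2 or more rows, and the ceiling profile, with 54 rows, was among them. After the ceiling, the profile that stood for the most rows was that of TC0100000688, with 49 rows on 15 chromosomes, 7 of them on X and 6 on chromosome 1. That of TC0100004244 followed with 48 rows on 15 chromosomes, and those of TC0200002308, TC0100004251 and TC0100007892 stood for 22, 18 and 16 rows on 14, 12 and 12 chromosomes.

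The 2 largest profiles below the ceiling were lower on every exposed array than on any control array. TC0100000688 had 17.9985, 17.74 and 17.78 on the control arrays, 15.98, 16.97 and 16.98 on the T10 arrays, 16.93, 16.66 and 16.97 on the T50 arrays, and 16.98, 16.37 and 16.91 on the T100 arrays. T10 replicate 1 was the lowest, and the exposed groups overlapped one another. The differences from control were -1.20 ± 0.26, -0.99 ± 0.26 and -1.09 ± 0.26 for T10, T50 and T100 (SE of the limma fit, n = 3 arrays each). TC0100004244 had 17.86, 18.28 and 17.83 on the control arrays, 16.02, 16.98 and 17.00 on the T10 arrays, 16.61, 16.53 and 16.97 on the T50 arrays, and 16.97, 16.53 and 16.47 on the T100 arrays. Here too T10 replicate 1 was lowest and the exposed groups overlapped, with differences from control of -1.33 ± 0.26, -1.29 ± 0.26 and -1.33 ± 0.26. After quantile normalization of the 12 arrays the differences of TC0100000688 were -0.48, -0.25 and -0.33. After it those of TC0100004244 were -0.61, -0.69 and -0.65. Control arrays chose these rows, so their differences from control, and the calls on them, are a description.

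The other large profiles moved less. TC0200002308 read 19.68, 19.81 and 19.68 in control cells, 19.26, 19.68 and 19.68 in T10, 19.68 on all T50 arrays, and 19.68, 19.62 and 19.66 in T100. At full precision a single value was shared by 7 of the 12 arrays, and the groups overlapped. TC0100004251 held 13.91 on 8 arrays, with T10 replicate 1 the lowest at 13.39 and control replicate 2 the highest at 14.18. Its differences from control were -0.28, -0.09 and -0.10 as deposited and 0.06, 0.22 and 0.14 after quantile normalization, so they turned sign with the scaling. TC0100007892 held 19.32 on 9 arrays, and its highest value was 19.73 on control replicate 2.

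**Figure D1:**
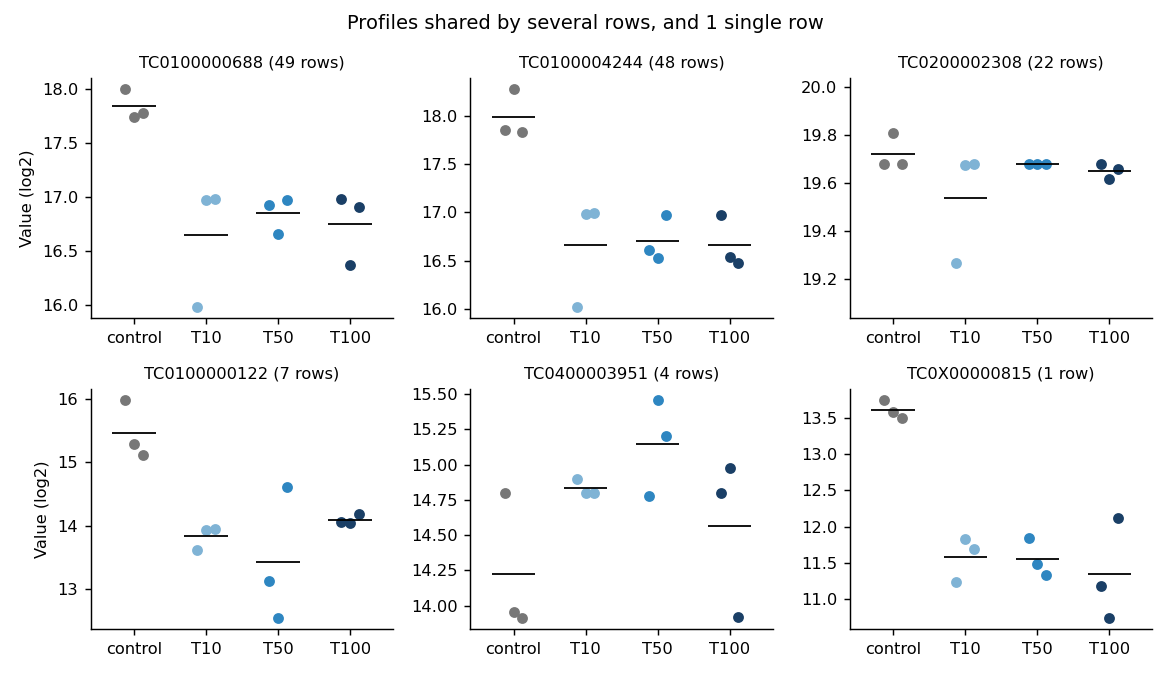
Value of each array (points, log2) and group mean (bars) for 5 profiles that several rows share and for the single row TC0X00000815, over control, T10, T50 and T100 with 3 arrays each. TC0100000688, TC0100004244, TC0100000122 and TC0X00000815 lie below control on all 9 exposed arrays, TC0200002308 holds 19.68 on most arrays, and TC0400003951 overlaps between groups.

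Profiles shaped like that of TC0100000688 were frequent. Of 1575 profiles without a symbol that varied at all, 286 (18.2%) correlated with it at Pearson's r of 0.9 or more over the 12 arrays, with a median r of 0.67. Of 415 varying bright rows with a symbol, 1 (raga) did, with a median r of 0.04. These correlations describe rows measured on the same 12 arrays, which share any shift of a whole array.

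Across the bright rows without a symbol, values were lower in the exposed cells at each dose. The median difference from control was -0.33 in T10, -0.38 in T50 and -0.32 in T100 over the 2224 rows, and -0.43, -0.46 and -0.44 over the 1642 profiles. The median over all 68842 probe sets was 0.01, 0.00 and -0.00, and over the 558 bright rows with a symbol it was 0.00 at each dose. Without control replicate 2, the brightest control array for these rows, the medians were -0.22, -0.25 and -0.20. The share of rows at least 0.5 lower than control was similar at the 3 doses, with 953 rows in T10, 992 in T50 and 979 in T100, beside 20, 26 and 33 rows at least 0.5 higher. Rows with a symbol gave 13, 14 and 14 lower by that much, and 4, 9 and 19 higher.

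In 919 of the 2224 rows (41.3%) all 9 exposed arrays lay below all 3 control arrays, which held for 2.26% of all probe sets. In 4 rows (0.180%) all 9 lay above, which held for 0.635% of all probe sets. Counted over profiles, 724 of 1642 lay wholly below. The same ordering held for 8 of the 558 rows with a symbol (1.43%) below and for 6 (1.08%) above. The 919 rows made up 59.2% of all 1553 probe sets on the array that lay wholly below control. Their median differences were -1.06 in T10, -0.97 in T50 and -1.08 in T100, and their median control level was 16.49. T10 replicate 1 was the lowest of the 12 arrays in 517 of them, T100 replicate 2 in 210 and T50 replicate 2 in 101.

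**Figure D2:**
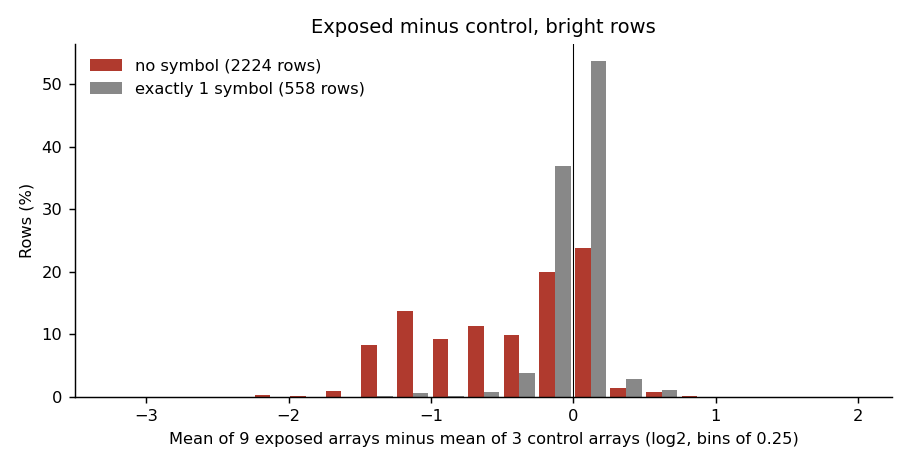
Share of rows (%) by the mean of the 9 exposed arrays minus the mean of the 3 control arrays (log2, bins of 0.25), for the 2224 bright rows without a symbol and the 558 with exactly 1. Rows without a symbol spread below 0, with 13.8% between -1.25 and -1, while 36.9% of rows with a symbol lie between -0.25 and 0 and 53.8% between 0 and 0.25.

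The share of rows wholly below control differed with the level. Among rows with a control mean of 12 to 14, 97 of 387 (25.1%) lay wholly below control, against 5 of 228 (2.19%) with a symbol. At 14 to 16, 202 of 517 (39.1%) did, against 2 of 141 (1.42%) with a symbol. At 16 to 18 the share was largest, 584 of 778 (75.1%), against 1 of 84 (1.19%) with a symbol, and the median differences there were -0.999, -0.88 and -1.01 in T10, T50 and T100. At 18 to 20, where the ceiling lies, 36 of 542 (6.64%) did, against 0 of 105 with a symbol. Rows of the same brightness with and without a symbol therefore differed in this share in each of the 3 ranges below 18.

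**Figure D3:**
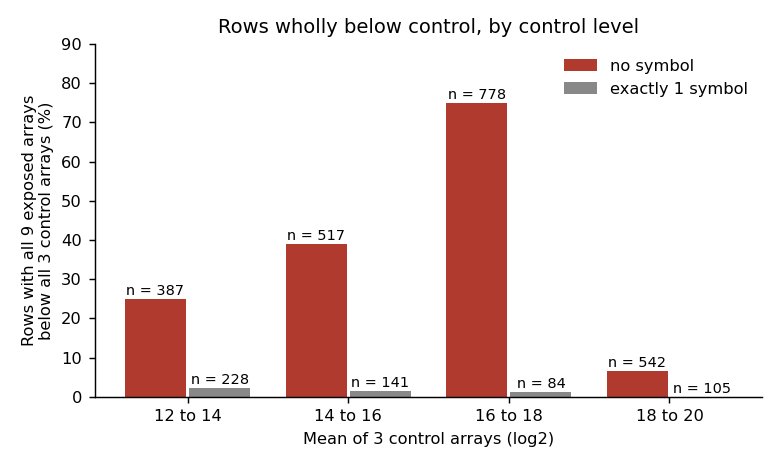
Share of bright rows (%) whose 9 exposed arrays all lie below all 3 control arrays, by the mean of the control arrays (log2, ranges of 2), for rows without a symbol and rows with exactly 1, and the number of rows above each bar. The share reaches 75.1% of the 778 rows without a symbol between 16 and 18 and stays at 2.19% or less for rows with a symbol.

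The direction against control depended on how the arrays were scaled. After quantile normalization the medians over the rows without a symbol were 0.00 in T10 and T50 and -0.0050 in T100, while the bright rows with a symbol stood at 0.28, 0.30 and 0.29 above control. The gap between the kinds of row was -0.33, -0.38 and -0.32 with the values as deposited and -0.28, -0.30 and -0.29 after quantile normalization. Among rows that varied off the ceiling it was -0.49, -0.54 and -0.58 as deposited and -0.40, -0.41 and -0.45 after it. Rows wholly below control then numbered 428 (19.2%, with 1.55% over all probe sets) and rows wholly above 295 (13.3%, with 1.47% over all). Of those 295, 42 hold a single deposited value on every array, so only the scaling moved them. Within ranges of level the medians after quantile normalization were 0.06, 0.06 and 0.06 at 12 to 14 in T10, T50 and T100, against 0.22, 0.24 and 0.18 with a symbol. At 16 to 18 they were -0.31, -0.25 and -0.33, against 0.57, 0.58 and 0.65 with a symbol. At 18 to 20 they were 0.00 for both kinds under both scalings. So below a level of 18 the rows without a symbol had the lower median relative to control under both scalings. Whether the first fell or the second rose cannot be told apart from these values.

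On single arrays the gap between the kinds of row was visible in each exposed replicate. With values as deposited, the median of the varying rows without a symbol minus the control mean was -0.77, -0.48 and -0.35 on the T10 arrays. It was -0.48, -0.72 and -0.42 on the T50 arrays, and -0.48, -0.59 and -0.60 on the T100 arrays, against -0.02, 0.15 and -0.10 on the control arrays. The 95th percentile of all probe sets was 10.46, 10.58 and 10.55 on the T10 arrays, 10.61, 10.54 and 10.66 on the T50 arrays, and 10.72, 10.68 and 10.77 on the T100 arrays, against 10.68, 10.92 and 10.65 on the control arrays. It was lower than on any control array in T10, and the T100 arrays overlapped with control.

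**Figure D4:**
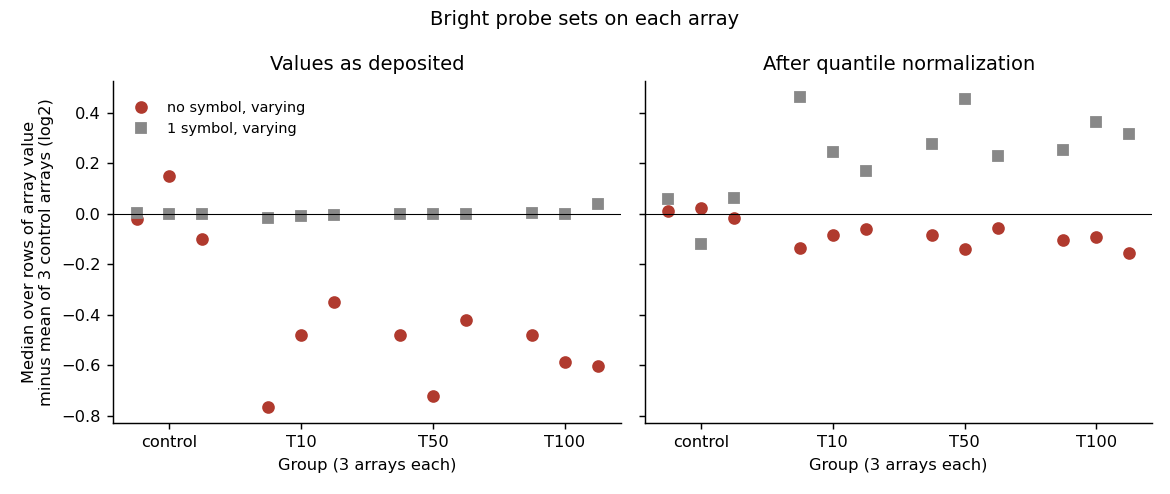
Median over varying bright rows of the value on each array minus the mean of the 3 control arrays (log2), for rows without a symbol (circles) and with exactly 1 symbol (squares), with the values as deposited (left) and after quantile normalization (right). Deposited, the 9 exposed circles lie between -0.77 and -0.35 and the squares near 0. After quantile normalization the exposed circles lie between -0.16 and -0.05 and the exposed squares between 0.17 and 0.46.

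Over profiles, the limma fit over all probe sets called 155 of the 1642 lower and 0 higher in T10, 153 lower and 1 higher in T50, and 288 lower and 6 higher in T100 (Benjamini-Hochberg adjusted p under 0.05). Over all probe sets 0.536%, 0.471% and 0.805% were called lower and 0.061%, 0.234% and 0.44% higher, which makes 0.597%, 0.705% and 1.24% in either direction. After quantile normalization the same profiles gave 68 lower and 62 higher in T10, 96 and 76 in T50, and 180 and 124 in T100. In those fits 0.317%, 0.434% and 0.693% of all probe sets were called lower and 0.256%, 0.507% and 0.639% higher. With the 95th percentile of an array as a covariate, 3 profiles were called lower in T10, 12 in T50 and 385 in T100, with 0.0465%, 0.0784% and 0.941% over all. The bright rows are among the probe sets above that percentile, so the covariate is not independent of them. The control arrays chose these rows, so these counts are a description.

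Rows were also chosen on 1 control array and fitted without it, a split added after seeing the data. For control replicate 1, 2199 of the rows so chosen were also among those chosen on all 3 control arrays. These calls are therefore a description too, and no independent test of lower values. Chosen on control replicate 1, 2203 rows without a symbol reached 12, and limma called 33 of them lower in T10 (1.498%), 53 in T50 (2.41%) and 115 in T100 (5.22%) than the other 2 control arrays. In those fits 0.167%, 0.215% and 0.276% of all probe sets were called lower. Chosen on control replicate 2, 23, 35 and 85 of 2335 rows were called lower, with 0.135%, 0.148% and 0.214% over all. Chosen on control replicate 3, 107, 126 and 248 of 2254 were, with 0.363%, 0.37% and 0.552% over all. At most 2 rows were called higher in any of these 9 comparisons. Over all probe sets 0.0174%, 0.107% and 0.182% were called higher in T10, T50 and T100 without control replicate 1, then 0.016%, 0.0726% and 0.154% without replicate 2, and 0.0421%, 0.116% and 0.231% without replicate 3. After quantile normalization the split was 29 lower and 33 higher in T10, 58 and 52 in T50, and 117 and 57 in T100 for rows chosen on control replicate 1. Over all probe sets these fits called 0.164%, 0.266% and 0.381% lower and 0.128%, 0.331% and 0.353% higher. Rows with a symbol chosen the same way gave, as deposited, 2 to 5 lower and 0 to 6 higher calls in each comparison, of 555 to 566 rows. After quantile normalization they gave 1 to 3 lower and 27 to 64 higher calls. Over the 3 choices, those quantile fits called 0.15% to 0.536% of all probe sets lower and 0.125% to 0.439% higher.

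The profiles furthest below control were of 2 kinds. In the first, the exposed groups stood together well below control. TC0X00000815 on chromosome X read 13.75, 13.58 and 13.50 in control cells, 11.23, 11.82 and 11.69 in T10, 11.84, 11.49 and 11.34 in T50, and 11.18, 10.74 and 12.12 in T100. All 9 exposed arrays were below control and the doses overlapped, with differences of -2.03 ± 0.31, -2.06 ± 0.31 and -2.26 ± 0.31. TC1100000526 on chromosome 11 averaged 15.94 ± 0.32, 14.09 ± 0.39, 14.16 ± 0.30 and 13.70 ± 0.47 in control, T10, T50 and T100 (SD, n = 3 arrays each). TC0600000725 on chromosome 6 averaged 14.01 ± 0.17, 12.14 ± 0.53, 12.33 ± 0.14 and 12.25 ± 0.25. The named genes most like these rows over the 12 arrays, among 392 candidates, were Irak3 (r = 0.96 with TC0X00000815 and 0.96 with TC1100000526), which encodes an inhibitor of interleukin-1 and Toll-like receptor signalling, and raga (r = 0.93 with TC0600000725). TC0100000122 stood for 7 rows on 4 chromosomes and averaged 15.47 ± 0.46, 13.83 ± 0.19, 13.42 ± 1.07 and 14.09 ± 0.08. T50 replicate 3, at 14.61, was its highest exposed array, still below the lowest control array at 15.12.

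In the second kind, arrays of 1 group were far apart. TC1600001293 on chromosome 16 read 15.45, 13.82 and 13.13 in control cells, 12.93, 9.46 and 12.20 in T10, 11.75, 10.15 and 13.67 in T50, and 12.01, 8.25 and 9.005 in T100. Replicate 2 was the lowest array in each exposed group, and T50 replicate 3 overlapped with control. Its differences of -2.60 ± 1.27, -2.27 ± 1.27 and -4.38 ± 1.27 were the most negative in T10, T50 and T100. TC0900000376 averaged 16.80 ± 0.76, 15.17 ± 0.90, 14.81 ± 1.26 and 13.15 ± 1.503 over control, T10, T50 and T100. TC0100000521 averaged 15.28 ± 0.62, 14.20 ± 1.45, 13.38 ± 1.26 and 11.64 ± 1.69, and TC1400001613 averaged 13.85 ± 0.86, 12.97 ± 1.38, 11.60 ± 1.24 and 10.32 ± 1.71.

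These 4 rows and the mitochondrial row TC0M00000029 had the same named gene as the most like them, Rn5s, the 5S RNA of the large ribosomal subunit. The correlations over the 12 arrays were 0.85 for TC1600001293, 0.95 for TC0900000376, 0.95 for TC0100000521, 0.90 for TC1400001613 and 0.90 for TC0M00000029. Rn5s itself read 10.78, 10.95 and 10.52 in control cells, 10.52, 10.04 and 10.80 in T10, 10.39, 9.63 and 10.71 in T50, and 10.42, 9.48 and 8.73 in T100. T100 replicate 3 was its lowest array and T100 replicate 2 the next, as in TC0100000521, TC0900000376 and TC0M00000029. In all, 45 of the 1642 profiles had a within-group SD over 1 in some group, 22 of them for control, 11 for T10, 12 for T50 and 15 for T100.

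Of the 20 mitochondrial rows without a symbol, 8 were at the ceiling on all 12 arrays and 4 on some. The 3 mitochondrially encoded genes with a symbol, all for subunits of cytochrome c oxidase, were at the ceiling on all 12 as well. In 1 of the 20 rows, TC0M00000029, every exposed array lay below control. It read 17.54, 16.98 and 17.53 in control cells, 16.80, 16.67 and 16.93 in T10, 15.79, 14.72 and 15.56 in T50, and 15.61, 13.61 and 11.22 in T100. The 4 group means were 17.35, 16.80, 15.36 and 13.48, lower at each higher dose with the values as deposited, and the T100 arrays spread over more than 4 units. After quantile normalization the T10 difference from control was 0.04, so the first step turned, and those of T50 and T100 were -1.33 and -3.34. The test between T100 and T10 gave -3.32 ± 0.85 with an adjusted p of 0.149 in the limma fit, and that between T50 and T10 gave -1.44 ± 0.85 with an adjusted p of 0.671. TC0M00000039 averaged 15.11 ± 0.55, 14.42 ± 0.52, 13.69 ± 1.53 and 13.51 ± 1.44 in control, T10, T50 and T100, and its groups overlapped. The other mitochondrial rows off the ceiling differed from control by at most 0.52 in mean.

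Few bright rows came from no placed chromosome. A row on an unplaced scaffold read 14.75, 14.83 and 14.60 in control cells, 13.34, 13.79 and 13.71 in T10, 13.59, 13.38 and 13.59 in T50, and 13.42, 12.97 and 13.91 in T100, so that all exposed arrays lay below control. The unmapped row TSUnmapped00000176 held 17.14 on 11 arrays, and TSUnmapped00000024 averaged 12.98 ± 0.04, 12.85 ± 0.21, 13.13 ± 0.23 and 13.04 ± 0.41, with overlapping groups.

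By chromosome, the share of bright rows wholly below control was highest on X, with 92 of 169 (54.4%), and on chromosome 2, with 113 of 219 (51.6%). It was low on chromosome 12, with 3 of 31 (9.68%), where 13 of the 31 rows were at the ceiling, on chromosome 10, with 18 of 75 (24.0%), and 1 of 20 on the mitochondrial chromosome. Median differences on X were -0.65, -0.67 and -0.73 in T10, T50 and T100. On chromosome 12 they were 0.00 at each dose. Rows of 1 profile recur on several chromosomes, so these shares are not independent of one another.

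Higher values in exposed cells were rare with the values as deposited. After quantile normalization 295 rows (13.3%) lay wholly above control, with 1.47% over all probe sets. Of these, 42 were among the 67 rows that hold a single deposited value on every array, so only the scaling moved them. The other 253 were among the 1875 rows that varied off the ceiling (13.5%). The 4 rows wholly above control as deposited were TC0500002758, TC0100001610, TC0800002840 and TC1400000647. They were named after their values were seen, except for TC0500002758. TC0500002758 on chromosome 5 read 12.53, 12.25 and 12.62 in control cells, 12.94, 12.90 and 12.89 in T10, 13.47, 13.68 and 13.49 in T50, and 13.19, 13.05 and 12.997 in T100. Its 3 exposed groups did not overlap with one another, and T50 was the highest. TC0100001610 averaged 16.14 ± 0.12, 16.57 ± 0.16, 16.35 ± 0.09 and 16.48 ± 0.08 in control, T10, T50 and T100. TC0800002840 averaged 12.52 ± 0.08, 12.79 ± 0.07, 12.97 ± 0.31 and 12.79 ± 0.06, and TC1400000647 averaged 13.49 ± 0.12, 13.68 ± 0.04, 13.68 ± 0.03 and 13.68 ± 0.03.

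The largest means above control had wider spreads. TC0400002826 on chromosome 4 was 1.29 ± 0.61, 0.89 ± 0.61 and 1.17 ± 0.61 above control in T10, T50 and T100, with control arrays at 13.86, 14.08 and 15.53. It was most like Krt14, a keratin of basal epithelial cells, at r = 0.82. TC1200001334 on chromosome 12 was 1.07 ± 0.42, 0.35 ± 0.42 and 1.46 ± 0.42 above control and most like Fads2 (r = 0.92), the delta-6 fatty acid desaturase. TC1400002178 on chromosome 14 was highest in T100, with 14.41, 15.86 and 15.08 on those arrays against 13.93, 13.43 and 13.31 in control. All 3 T100 arrays were above the 9 others, and its difference from control was 1.56 ± 0.31. T100 was not called against T10 or T50, with adjusted p of 0.0965 and 0.266 (limma). TC1600001054 averaged 12.18 ± 0.45, 12.28 ± 0.51, 12.91 ± 0.17 and 13.43 ± 0.23, with means higher at each higher dose. Its T10 difference from control, 0.10, turned to -0.16 without control replicate 1 or without T10 replicate 3. Between doses it was not called, with adjusted p of 0.534 for T50 against T10, 0.125 for T100 against T10 and 0.724 for T100 against T50 (limma). TC0500002955 was 1.09 ± 0.51, 0.74 ± 0.51 and 1.15 ± 0.51 above control. TC0X00000808 was 0.83 ± 0.24 above control in T50 and TC0700001961 was 0.90 ± 0.40 above it in T10.

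Some rows without a symbol repeated a named gene exactly. Apart from the ceiling, 4 profiles were identical on all 12 arrays with a row that carries a symbol. TC0300000461 held 19.45 on every array, as did Rps20, a protein of the small ribosomal subunit. TC0600000871 matched Faul1 and averaged 14.45 ± 0.10, 14.33 ± 0.08, 14.35 ± 0.10 and 14.39 ± 0.005 in control, T10, T50 and T100. TC0400003951, which stands for 4 rows on chromosome 4, matched Hist1h4b, a histone H4 gene. It read 14.80, 13.96 and 13.91 in control cells, 14.90, 14.80 and 14.80 in T10, 14.77, 15.46 and 15.20 in T50, and 14.80, 14.98 and 13.92 in T100. Control replicate 1 shared its value with 3 of the exposed arrays, and the groups overlapped. TC0900000595 matched Rpl36Al2, and its values follow among the comparisons of the doses.

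Named rows of the abundant gene families gave a view of what other bright rows did. Of 375 rows for cytosolic ribosomal proteins, 135 were bright, with a median difference of 0.00 at each dose and 0 wholly below or above control. The 13 bright rows for actins and tubulins, the 8 for glycolytic enzymes and the 4 for elongation factors likewise had medians of 0.00 and 0 rows wholly outside control. The 9 bright rows picked by histone symbols, core and linker types not set apart, had medians of 0.01, 0.02 and 0.06. The 4 for ferritin had -0.04, -0.01 and 0.01. Of 399 microRNA rows, 0 were bright. On all 12 arrays the ceiling held 9 ribosomal protein rows, 8 for actins and tubulins and 2 each for glycolytic enzymes, elongation factors and histones. Rows at the ceiling cannot show a lower value. Only 1.43% of all bright rows with a symbol lay wholly below control, so the 0 in these families is not read as a contrast.

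Comparisons among the 3 doses took differences between exposed arrays, which did not choose the rows. The control arrays, which did, still entered the shared estimate of spread behind each p-value. T50 against T10 called 1 of the 1642 profiles, which was higher in T50, with 0.292% called over all probe sets (0.243% higher, 0.0494% lower). T100 against T10 called 5, all higher in T100, with 0.572% called over all (0.491% higher, 0.0813% lower). T100 against T50 called 0, with 0.253% over all (0.16% higher, 0.093% lower). At an unadjusted p under 0.05 in that limma fit there were 100 profiles (6.09%), with 7.74% of all probe sets. Bright rows with a symbol gave 10, 12 and 5 calls of 558 in the same comparisons. Median differences over the profiles were 0.00, 0.00 and -0.02. The means of the 3 exposed groups stood in falling order of dose in 270 profiles (16.4%) and in rising order in 204 (12.4%). Among rows with a symbol they stood so in 23 (4.12%) and 159 (28.5%) of 558. After quantile normalization falling and rising order numbered 381 and 247 profiles, and 89 and 152 rows with a symbol. These orders were not tested, and their shares over all probe sets were not counted.

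The row called in T50 against T10 was TC0500002758, whose values are given above. It was higher in T50 than in T10 by 0.63 ± 0.09, with an adjusted p of 0.0289 in the limma fit and no overlap between the arrays. With 1 array left out at a time, the call held without control replicates 2 or 3 or T100 replicates 1 or 3, and not without any of the other 8 arrays, where the adjusted p reached 0.121. It was also lost after quantile normalization, with a difference of 0.62 and an adjusted p of 0.265, and the 1 profile called under that scaling was another. The named gene most like it was Ndufa9 (r = 0.95), a subunit of mitochondrial respiratory complex I.

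The rise with the smallest p in T100 against T10 was that of TC1400002257 on chromosome 14. Its T100 arrays read 13.17, 13.03 and 13.03, against 11.56, 12.27 and 11.87 for T10, with 12.49, 12.67 and 12.66 in T50 and 12.64, 12.35 and 12.44 in control. The T100 arrays were above all others and the T10 arrays below all others. T100 was higher than T10 by 1.18 ± 0.15 with an adjusted p of 0.0117 (limma). The call held in 11 of 12 fits with 1 array left out; without T100 replicate 3 the adjusted p was 0.0501. Its nearest named gene was Ktn1 (r = 0.96), which encodes kinectin, a membrane protein of the endoplasmic reticulum.

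TC0900000595 on chromosome 9, the row identical to Rpl36Al2, read 13.45, 13.83 and 13.64 in T100, against 12.53, 12.79 and 12.46 in T10. T50 lay between at 12.80, 12.92 and 13.24, and control at 12.90, 12.59 and 12.38 overlapped with T10. The T10 difference from control was -0.03 as deposited and 0.19 after quantile normalization. T100 was higher than T10 by 1.04 ± 0.16 with an adjusted p of 0.0259 (limma). The call was lost without control replicate 2, T10 replicate 1 or 3, or T100 replicate 2 or 3, with adjusted p up to 0.0992.

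The other 3 calls lay nearer to the threshold. TC1800000385 on chromosome 18 read 16.44, 16.67 and 16.26 in T100, against 15.37, 15.90 and 15.07 in T10, while control and most T50 arrays held 15.90. The difference was 1.01 ± 0.18 with an adjusted p of 0.0469 (limma), and its nearest named gene was Lmnb1 (r = 0.90), a lamin of the nuclear envelope. TC1100000904 read 13.70, 13.33 and 13.40 in T100, against 12.61, 12.57 and 13.05 in T10, with a difference of 0.73 ± 0.13 and an adjusted p of 0.0497. Its nearest named gene was Mastl (r = 0.86), a mitotic kinase. TC1100001481, named after its values were seen, read 13.37, 13.11 and 13.13 in T100, against 12.69, 12.40 and 12.39 in T10, with a difference of 0.71 ± 0.12 and an adjusted p of 0.0380. With 1 array left out at a time, TC1800000385 stayed called only without T10 replicate 2 and TC1100000904 only without T10 replicate 3. TC1100001481 stayed called without T10 replicate 1, T50 replicate 1 or T50 replicate 2, and the adjusted p otherwise reached 0.147, 0.157 and 0.117 for the 3 rows. With a covariate for the 95th percentile of an array, 0 of the 5 stayed called in T100 against T10, and after quantile normalization TC1400002257 and TC1100000904 stayed called, with adjusted p of 0.0220 and 0.0493. Among the 9 exposed arrays alone TC1400002257 and TC0900000595 stayed called, with adjusted p of 0.0477 and 0.0484. There TC1800000385, TC1100000904 and TC1100001481 lost their calls, at 0.133, 0.136 and 0.0939, and 3 other profiles were called lower in T100.

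**Figure D5:**
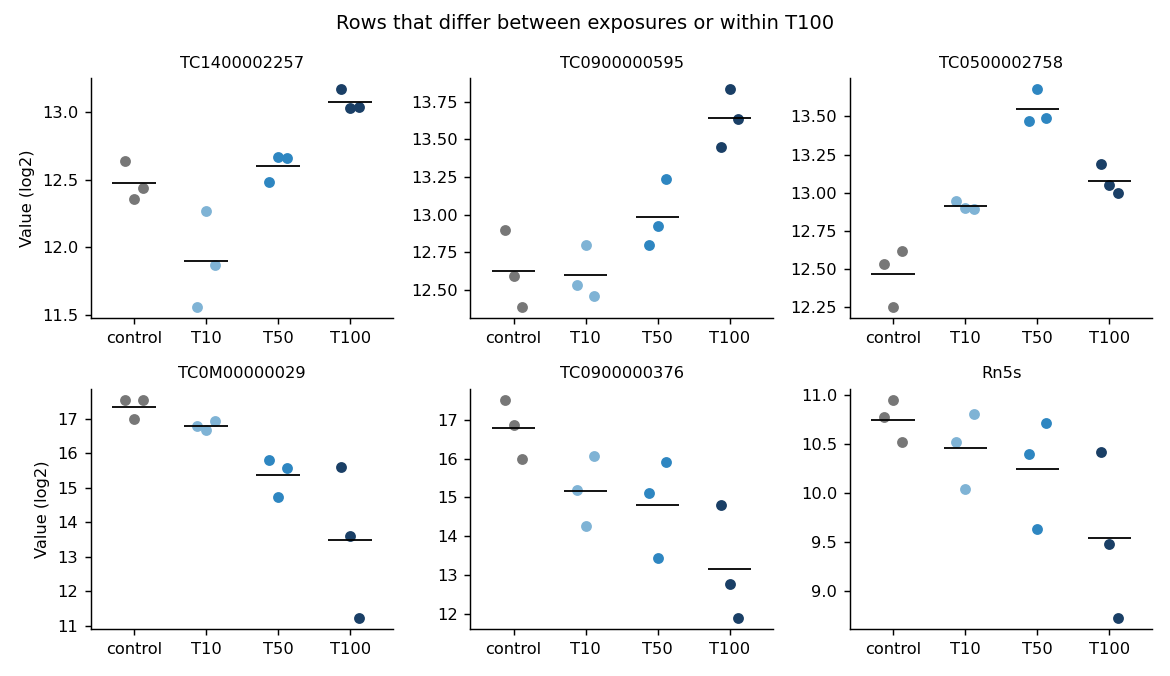
Value of each array (points, log2) and group mean (bars) over control, T10, T50 and T100, 3 arrays each, for TC1400002257, TC0900000595 and TC0500002758, which were called between doses, for TC0M00000029 and TC0900000376, whose T100 arrays spread widely, and for the named 5S RNA gene Rn5s. TC1400002257 and TC0900000595 are highest in T100, TC0500002758 in T50, and the lower 3 panels have T100 replicates 2 and 3 at the bottom.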

How the data were processed

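The deposited table holds 1 value per probe set and array on a log2 scale; the base was inferred from the range of 2.87 to 19.93, while the authors' background correction, probe summary and normalization are not given in the sources used here. Gene symbols came from the platform's annotation, updated through the Entrez number where the rat gene table matched (22077 rows, 1 renamed). Rows with several symbols (505) were left out of both kinds of bright row but stayed in the fits and among all probe sets. Control probe sets (1738) were left out of the fits. The depth of an array has no count, and the number of arrays limits the precision.

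Linear models (lmFit, eBayes, prior degrees of freedom 1.73; limma 3.58.1, R 4.3.3) were fitted to all 68842 probe sets and 12 arrays, with 4 group means and no block. All p-values were two-sided and adjusted by Benjamini-Hochberg over all probe sets, with calls under 0.05. Simulated arrays with known changes were used to test these steps.

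Named rows followed a rule: the 6 profiles of most rows and the 6 brightest, called rows between doses without overlap (up to 4 a direction), the 4 largest and 4 smallest differences from control, mitochondrial and unplaced rows, and rows at the threshold. The nearest named gene had a mean of 8 or more and group means spanning 0.5 or more. The members and lists were chosen with earlier results of these data known. The alternatives tried were quantile normalization, a 95th-percentile covariate, a variance trend, filters on ceiling, level and identical profiles, the 9 exposed arrays alone, a replicate block and leaving out each array. Rows chosen on 1 control array, the counts wholly below control and the alternatives to the calls against control and to the order of the exposed means were added after seeing the data.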

Additional observations from a re-analysis of the deposited data

How the results depend on the processing

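T50 against T10 called 1 profile without a symbol in the fit as reported and 5 among probe sets with a mean of 6 or more. It called 0 with the replicate block and 0 to 2 with 1 array left out. Among all 8155 probe sets with a mean of 6 or more, 317 were called higher and 34 lower. Of 68842 probe sets, the block gave 91 higher and 16 lower. Fits with 1 array left out gave 62 to 148 higher and 11 to 38 lower. T100 against T10 called 5 as reported, 2 after quantile normalization, 0 with the 95th-percentile covariate and 3 with a variance trend. It called 14 among probe sets with a mean of 6 or more, 1 with the block and 1 to 11 with 1 array left out. The exposed arrays alone gave 5, of which 2 higher and 3 lower. Among all 8155 probe sets with a mean of 6 or more, 594 were called higher and 27 lower. Of 68842 probe sets, quantile normalization gave 127 higher and 78 lower, the covariate 50 and 13 and the trend 217 and 41. The block gave 176 and 20, and the exposed arrays alone 155 and 24. Fits with 1 array left out gave 116 to 336 higher and 20 to 99 lower. T100 against T50 called 0 as reported, 1 after quantile normalization, 1 with the covariate and 1 among the brighter probe sets. It called 3 with the exposed arrays alone, 1 with the block and 0 to 6 with 1 array left out. Among all 8155 brighter probe sets, 118 were called higher and 68 lower. Of 68842 probe sets, quantile normalization gave 87 higher and 111 lower, and the covariate 40 and 22. The exposed arrays alone gave 70 and 46, and the block 83 and 48. Fits with 1 array left out gave 60 to 103 higher and 35 to 67 lower. The median difference from control after quantile normalization was 0.00 in T10, 0.00 in T50 and -0.0050 in T100. In T100 it was -0.44 over distinct profiles and -0.48 without rows at the ceiling on all arrays. With 1 array left out it ran between -0.41 and -0.22 in T10, -0.44 and -0.25 in T50, and -0.39 and -0.20 in T100. Rows wholly below control numbered 428 after quantile normalization. Rows chosen on 1 control array and called lower numbered 21 to 107 in T10, 35 to 126 in T50 and 85 to 248 in T100. These ranges cover the 3 choices and both scalings (23 as deposited for control replicate 2 in T10). With quantile normalization 29, 21 and 62 were called lower and 33, 36 and 44 higher in T10 for control replicates 1, 2 and 3. The counts in T50 were 58, 57 and 78 lower and 52, 52 and 61 higher. Those in T100 were 117, 109 and 165 lower and 57, 58 and 86 higher. Over all probe sets those fits called 0.164%, 0.15% and 0.257% lower and 0.128%, 0.125% and 0.19% higher in T10. In T50 the shares were 0.266%, 0.23% and 0.333% lower and 0.331%, 0.247% and 0.32% higher. In T100 they were 0.381%, 0.338% and 0.536% lower and 0.353%, 0.314% and 0.439% higher. The cause of these shifts was not tested. The number of members, the bright rows without a symbol, was 2509 at a level of 11, 2042 at 13 and 2179 by the mean of all 12 arrays. The labels do not say whether the replicate numbers pair the arrays. Deviations of same-numbered arrays over all probe sets correlated between -0.18 and 0.13 over 18 pairs, with 2 above 0.1. Most of those probe sets lay below background, so these correlations cannot tell whether bright rows share a replicate effect. Of the values for single rows under an alternative, 930 kept their direction and call or moved by no more than 1 SD, 71 moved further and 64 lost a call. The 930 include rows constant on all 12 arrays, such as TC0900001834, whose difference is 0 whichever array is left out. Of the named differences from control, 19 of 135 turned sign after quantile normalization and 16 of 810 with 1 array left out, of which 0 had been called. Values at the ceiling or repeated on several arrays limit what brightness can show.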

Other observations

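Rows without a symbol just below the level of the bright ones showed less of the same ordering. Of 1151 such rows with a control mean of 8 to 12, 94 (8.17%) had all 9 exposed arrays below all 3 control arrays, against 43 of 1321 rows with 1 symbol (3.26%) at that level. Their median differences from control were -0.20 in T10, -0.17 in T50 and -0.01 in T100, beside -0.11, 0.00 and 0.08 for rows with a symbol. Of 41516 rows without a symbol under 8, 205 (0.494%) lay wholly below control.

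The bright named rows that lay wholly outside control were few and were named after their values were seen. Below control lay raga, mover, Fst, Ccng1, Cpd, Ucp2, Soat1 and Ap2a2. Fst encodes follistatin, which binds activin, and its means were 12.78, 12.15, 11.53 and 12.22 in control, T10, T50 and T100. Ucp2, a mitochondrial inner membrane carrier, had means of 14.98, 14.62, 14.52 and 14.47. Soat1, which esterifies cholesterol, had means of 14.12, 13.94, 13.78 and 13.78. Above control lay Anxa5, Calu, Cd151, Rpn1, Rrm2l1 and Septin7. Anxa5, an annexin that binds phosphatidylserine, had means of 14.59, 14.76, 14.76 and 15.00 in control, T10, T50 and T100.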
